A study of Homo sapiens with 8 samples.

Results

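The genes described here are 31 targets of the transcription factor p53, chosen by name from the counts table of 58302 genes. The listed names cover 6 roles: feedback regulators (2 genes), cell cycle arrest (6), mitochondrial apoptosis (8), death receptors (3), DNA repair and nucleotide supply (4), and stress metabolism with secreted factors (8). All 31 were found in the table, and all 31 passed the filter on low counts. The gene that encodes p53 is not one of the listed members and is not analysed here.

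RNA was sequenced from untreated, undifferentiated human pluripotent stem cells that lacked KIF3A or KIF3B, the motor subunits of kinesin-2, or from isogenic controls. WTC11, an induced pluripotent stem (iPS) cell line, gave 2 control libraries (guide RNA 1 for control 1, guide RNA 2 for control 2) and 3 KIF3B knockout libraries (guide RNA 1 for knockouts 1 and 2, guide RNA 2 for knockout 3). WA09, an embryonic stem (ES) cell line, gave 2 control libraries and 1 KIF3A knockout library, all labelled with guide RNA 1. Every library came from poly-A RNA of 100 to 1000 cells grown feeder-free in mTeSR1 medium and lysed directly, and SMART-Seq and Nextera XT kits were used for the libraries. The series text speaks of several clones, but the labels tie no library to a clone or culture of its own, so the p-values speak only of the spread among the libraries at hand, and that spread may be technical. The knocked-out gene and the cell line change together between the WTC11 and WA09 arms and cannot be told apart.

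p53 is held at a low level in unstressed cells by MDM2, a ubiquitin ligase, and MDM4, its partner, and MDM2 is itself a p53 target, which closes a feedback loop. DNA damage and other stresses free p53, which binds response elements near its targets and raises genes that stop the cell cycle, repair DNA or start apoptosis. Human pluripotent stem cells are known for a low threshold for apoptosis, and cells with weakened p53 function can gain ground in culture.

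A match to the p53 response element, 2 half-sites of 10 bases with a C and a G at the core of each, was sought in promoter windows to show which members carry one beside their start. Windows ran from 250 bases before to 50 bases after each RefSeq transcript start (GRCh38.p14). Up to 3 mismatches outside the 4 core letters and a spacer of 0 or 1 base were allowed, and since the consensus is palindromic both strands were covered. A match was found in 9 of the 26 members with a window, and in 795 of 27305 genes with a window (2.91%). Each is printed 5′ to 3′ on the gene's strand with the core C and G of each half-site in capitals.
MDM2: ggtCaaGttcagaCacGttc
FAS: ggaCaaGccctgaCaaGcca
AEN: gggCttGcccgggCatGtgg
DDB2: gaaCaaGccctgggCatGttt
PMAIP1: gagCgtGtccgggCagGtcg
RPS27L: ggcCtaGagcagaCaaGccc
FDXR: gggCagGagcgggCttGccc
GDF15: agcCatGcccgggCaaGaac
SESN1: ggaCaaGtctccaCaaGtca

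The DDB2 match, at chr11:47214979-47214999 on the plus strand, had 0 mismatches and a spacer of 1 base, and lay 5 to 25 bases after the start. The matches of MDM2 (chr12:68808923-68808942, plus), FAS (chr10:88991309-88991328, plus) and AEN (chr15:88621306-88621325, plus) had 2 mismatches each. The other 5 had 3 mismatches: PMAIP1 (chr18:59899811-59899830, plus), RPS27L (chr15:63157527-63157546, minus), FDXR (chr17:74872996-74873015, minus), GDF15 (chr19:18386186-18386205, plus) and SESN1 (chr6:109009018-109009037, minus). These are matches of letters and not measured binding, and elements outside the windows were not searched. Of the members the results turn on, MDM2, FAS, PMAIP1, RPS27L and DDB2 carry a match. CDKN1A, PLK2, BAX, TRIAP1 and POLH have windows in which none was found. RRM2B, TP53INP1, TNFRSF10B, GADD45A and PHLDA3 had no window and were not searched.

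Library totals ran from 2161890 to 2875163 counts and 16658 to 18562 genes were detected per library. Levels are given as CPM, counts scaled to a common library size over the genes tested, with TMM normalization. A count of 0 leaves room for up to 3 counts, or 1.04 to 1.39 CPM of the library total. All 12 markers of undifferentiated pluripotent cells were detected, with a summed level of 4995 to 6079 CPM of the library total. KIF3B RNA was not lower in the KIF3B knockouts (129, 86 and 107 counts) than in the WTC11 controls (71 and 59 counts), and KIF3A had 75 counts in the KIF3A knockout against 174 and 167 in the WA09 controls. RNA levels do not check the labels here, since an edit can leave the transcript in place. These are bulk libraries, in which a smaller share of cells expressing a gene and less RNA per cell cannot be told apart.

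Per kilobase of the principal transcript, the mean level over the 8 libraries was highest for PMAIP1 (NOXA, which neutralises anti-apoptotic BCL2 proteins), at 214 CPM per kb. CCNG1 (cyclin G1) followed at 184, TRIAP1 (an inhibitor of apoptosis) at 172, BAX (which permeabilises the outer mitochondrial membrane) at 150, and AEN (a nuclease of apoptotic cells) at 104 CPM per kb. The lowest were SPATA18 (a mitochondrial quality control protein) at 1.18 and ZMAT3 (an RNA-binding protein) at 2.21 CPM per kb. RPS27L was left out of this order, because the length annotated for its principal transcript, 6434 bases, was doubtful.

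**Figure D1:**
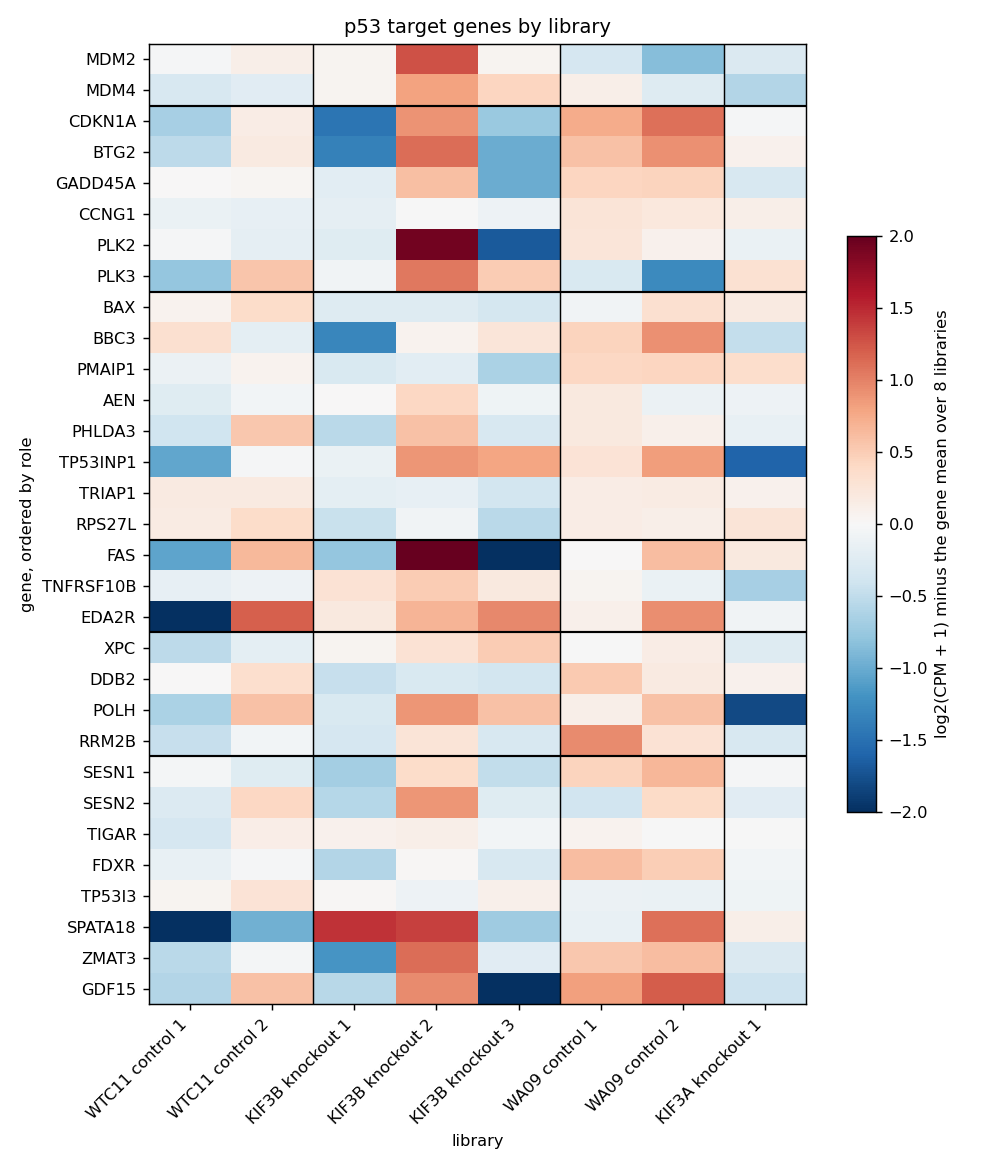
Level of each p53 target in each of the 8 libraries, as log2(CPM + 1) minus the gene's mean over the libraries (colour scale, limited at both ends), with genes in rows by role and libraries in columns by group. KIF3B knockout 2 and both WA09 controls are mostly above the gene means, with 24 of 31 members above their own mean in each of the 3.

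No member passed the threshold in any of the 5 comparisons (edgeR's quasi-likelihood test, Benjamini-Hochberg adjusted p under 0.05 over all genes tested). Replicate libraries of 1 group differed widely in the members. The median SD of log2(CPM + 1) among the 3 KIF3B knockouts was 0.56 for the members and 0.30 for all genes tested. Among the WTC11 controls these medians were 0.23 and 0.27, and among the WA09 controls 0.23 and 0.22.

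KIF3B knockout 2 was the library that stood apart. Of the 5 WTC11 libraries it had the highest level of 20 of 31 members, against 19.3% of all genes tested. The other libraries were highest for fewer: WTC11 control 1 for 1 member (all genes 26%), control 2 for 8 (18.3%), KIF3B knockout 1 for 1 (13.7%) and knockout 3 for 1 (22.7%). By role, the 20 held both feedback regulators, 6 of 6 cell cycle arrest genes, 3 of 8 mitochondrial apoptosis genes, 2 of 3 death receptors, 2 of 4 repair and nucleotide supply genes, and 5 of 8 stress and secreted factor genes. Lowest levels were spread the other way. Knockout 2 was lowest for 1 member, TP53I3 (all genes 20.3%), knockout 1 for 10 (11.4%), knockout 3 for 8 (19.9%), control 1 for 12 (30.4%) and control 2 for 0 (18%).

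**Figure D2:**
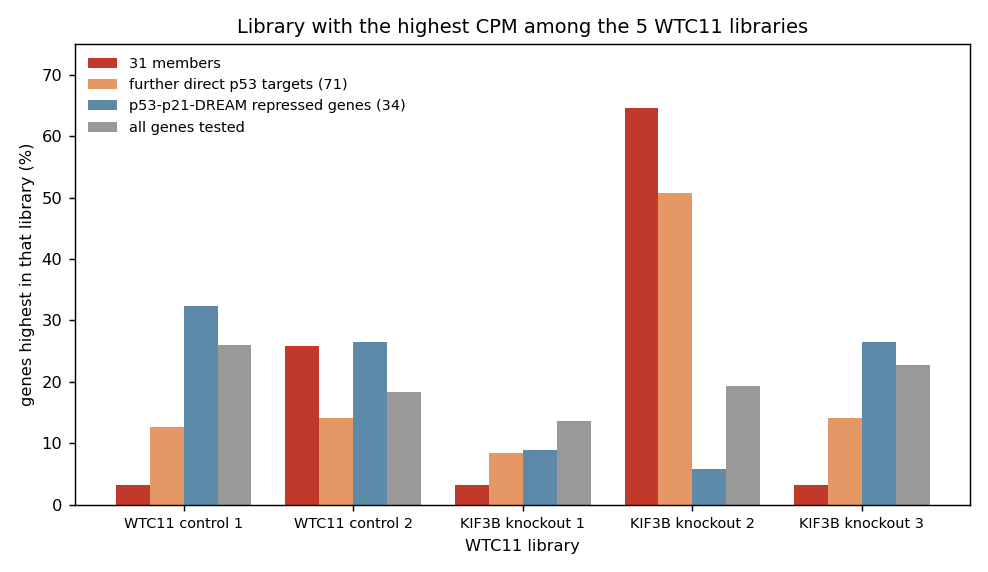
Share (bars, percent) of the 31 p53 targets, of 71 further direct targets, of 34 DREAM-repressed genes and of all genes tested for which each of the 5 WTC11 libraries had the highest level. KIF3B knockout 2 was highest for 20 of 31 members, 36 of 71 further targets, 2 of 34 DREAM-repressed genes and 19.3% of all genes.

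In 6 members knockout 2 was at least 1.5 times the next highest WTC11 library, which held for 4.54% of all genes tested. CDKN1A (p21), the inhibitor of cyclin-dependent kinases through which p53 halts the cycle, was at 38 and 67.1 CPM in the WTC11 controls and at 21.4, 114 and 35.6 CPM in KIF3B knockouts 1, 2 and 3 (83, 148, 56, 263 and 99 counts). Knockout 2 was above both controls and the other two knockouts below both, so the groups overlapped. The fitted difference was 0.11 ± 0.58 on the log2 scale (log2 fold change ± SE, knockout over control), within its error. It turned to -0.88 without knockout 2, to -0.24 without WTC11 control 1 and to -0.25 under limma.

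MDM2 was at 74.3 and 81.6 CPM in the controls and at 77.9, 183 and 78.3 CPM in the knockouts. Knockouts 1 and 3 lay between the controls and knockout 2 was 2.24 times the highest of the other 4 libraries. The difference of 0.53 ± 0.37 (log2) did not exceed the spread between libraries. MDM4 was at 33.0 and 35.3 CPM in the controls and at 43.2, 73.4 and 56.1 CPM in the knockouts. Here all 3 knockouts lay above both controls, with a log2 fold change of 0.75 ± 0.30 (edgeR adjusted p = 0.26).

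FAS, the death receptor for FAS ligand, had the widest range among the KIF3B knockouts. Its counts were 10 and 38 in the controls and 15, 159 and 4 in the knockouts (4.58 and 17.2 against 5.73, 69.1 and 1.44 CPM). Knockout 2 was highest and knockout 3 lowest of the 5 libraries, 48.1-fold apart on the CPM scale, and the log2 fold change of the group was 1.2 ± 1.23, which turned to -1.60 without knockout 2 and to -0.24 under limma. Exons of FAS share bases with ACTA2 on the opposite strand, which had 14 counts in knockout 2, and the strand setting of the counting is not given in the sources used here.

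PLK2, a polo-like kinase induced by p53, was at 57.8 and 51.7 CPM in the controls and at 49.3, 225 and 17.6 CPM in the knockouts. It repeated the order of FAS, with knockout 2 highest (3.90 times the next library) and knockout 3 lowest. Its log2 fold change of 0.82 ± 0.78 turned to -0.71 without knockout 2 and to -0.03 under limma. BTG2, an antiproliferative gene, had 15 and 26 counts in the controls and 9, 54 and 13 in the knockouts, and ZMAT3 27 and 40 against 20, 95 and 44. In both, knockout 2 was above every other WTC11 library and knockout 1 was the lowest.

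**Figure D3:**
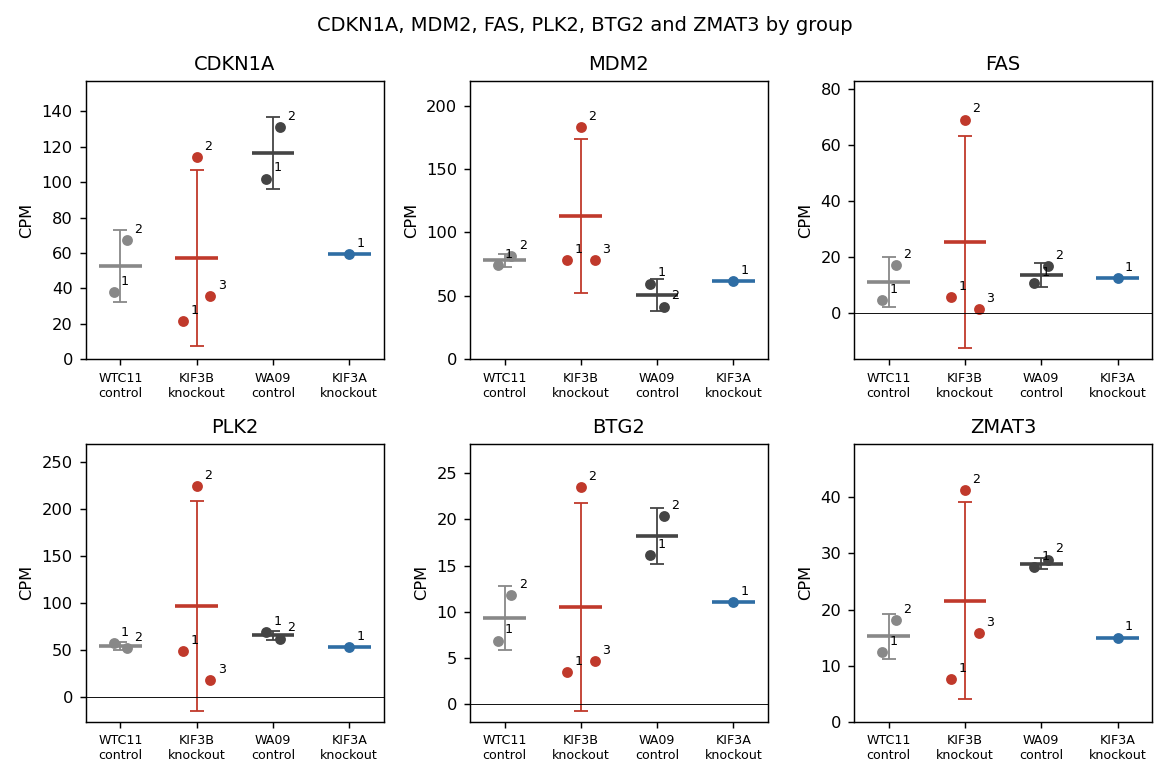
CPM of CDKN1A, MDM2, FAS, PLK2, BTG2 and ZMAT3 in every library by group (points, labelled with the replicate number), with the group mean (line) and SD (bar) where a group has more than 1 library. Axes are linear, and SD bars that reach below 0 (FAS, PLK2 and BTG2) extend the axis past the line at 0. The genes shown are the members in which KIF3B knockout 2 was at least 1.5 times the next highest WTC11 library. Its place above the other 4 WTC11 libraries in each panel follows from that choice. The remaining knockouts are near or below the WTC11 controls.

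The members just short of that ratio were GADD45A, a growth arrest gene, at 1.49 times the next library, and PLK3, another polo-like kinase, at 1.43. SESN2 and SESN1, the sestrins that restrain mTORC1, were at 1.39 and 1.33 times. AEN was at 1.32, MDM4 at 1.31 and GDF15, a secreted stress cytokine, at 1.29 times the next library. POLH, a polymerase that copies past damaged bases, and RRM2B, a p53-inducible ribonucleotide reductase subunit, were both at 1.25 times. CCNG1, the second most abundant member per length, was at 1.07 times, with 409 and 403 CPM in the controls and 398, 450 and 419 CPM in the knockouts.

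Other pathway genes were read in the same library. Among all genes tested, 19.3% were highest in knockout 2, 20.3% were lowest there, and 4.54% passed the ratio of 1.5. Of 71 further direct p53 targets tested, 36 were highest in knockout 2 and 7 passed the ratio of 1.5. Of 31 p53 regulators and cofactors, 5 were highest there, near the share of all genes. Of 34 cell cycle genes that p53 represses through p21 and the DREAM complex, 2 were highest and 14 were lowest in knockout 2. Genes of the integrated stress response, an ATF4-driven programme for amino acid and unfolded protein stress, were highest in knockout 2 in 10 of 11 cases and passed the ratio of 1.5 in 8 of 11. PPP1R15A, which ends that response by restoring translation, had 41 and 51 counts in the controls and 51, 136 and 82 in the knockouts. VLDLR, a lipoprotein receptor and ATF4 target, had 36 and 59 counts in the controls and 105, 215 and 95 in the knockouts.

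Some markers of fibroblasts and mesenchymal cells were also high in this library. The summed level of that list was 947 CPM of the library total in knockout 2 and 538 to 743 CPM in the other 7 libraries. COL1A1 was at 120 CPM against 21 to 49.1, COL1A2 at 301 against 119 to 164, and VIM at 174 against 51.8 to 77.4. The other detected markers did not stand out: THY1, the most abundant, was at 332 CPM, below both WTC11 controls (426 and 432), POSTN at 7.12 CPM lay within the range of the other libraries (4.92 to 13.3), and COL3A1 was at 0. S100A6, at 13.4 CPM, was the highest of the WTC11 libraries and below the 3 WA09 libraries (15.6 to 17.6). LUM and DCN, defining genes of fibroblasts, were at 0 in all 8 libraries, and 7 of the 9 listed genes were detected in at least 1. The summed level of the pluripotency markers, 6079 CPM, was the highest of the 8 libraries by a narrow margin over WTC11 control 2 (6072 CPM). Single markers of that list went both ways. DNMT3B (1647 CPM) and SALL4 (437 CPM) were above both WTC11 controls (1331 and 1578, 253 and 326). POU5F1 (194 CPM) and TERF1 (188 CPM) were below both (222 and 234, 349 and 324). The part of the fibroblast and mesenchymal markers in the members' pattern was not tested.

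With the trend with transcript length removed, 21 members were highest in knockout 2 (all genes 21.9%) and 9 passed the ratio of 1.5 (all genes 4.55%), or 20 and 8 members with the length of the principal transcript. Of the further direct targets, 31 of 71 were then highest there. Of the 34 DREAM-repressed genes, 5 were then highest and 12 lowest there, or 4 and 11 with the length of the principal transcript. Lowest there were 18.5% and 18.7% of all genes in these 2 settings.

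In the comparison of KIF3B knockouts with WTC11 controls, 19 members had a higher and 12 a lower fitted mean, with a median log2 fold change of 0.13 (all genes tested, 0.03). None passed the threshold, as was true of all genes tested (0% by edgeR). DESeq2 called 3.03% of the genes for which it gave an adjusted p and no member, while giving none for 10 members. Unadjusted edgeR p-values were under 0.05 for 9 members, 4 higher and 5 lower, and for 16.6% of all genes. limma gave 7 members and DESeq2 8, and the edgeR count was 5 without WTC11 control 1.

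The median turned on single libraries. It was 0.32 without knockout 1, -0.38 without knockout 2, 0.24 without knockout 3, 0.46 without WTC11 control 2 and -0.09 without WTC11 control 1, and -0.09 under limma with all libraries. With the number of detected genes as a covariate it was 0.57.

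Members separated in both directions. Every KIF3B knockout was above both controls in MDM4, TNFRSF10B, XPC and SPATA18 (4 of 31, all genes 16.5%). Every knockout was below both controls in BAX, PMAIP1, TRIAP1, RPS27L and DDB2 (5 of 31, all genes 18%). Both shares are near those of all genes. Without knockout 2 the lower set grew to 11 members (all genes 22.7%), with CDKN1A, BTG2, GADD45A, PLK2, SESN1 and FDXR added. Without WTC11 control 1 it held 8 (all genes 29.6%), and without WTC11 control 2 the higher set held 12 (all genes 33.6%).

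By the role labels used here, the lower set held 4 mitochondrial apoptosis genes and 1 repair gene. That label covers genes of opposed action, since it holds BAX and also TRIAP1, an inhibitor of apoptosis. BAX was at 123 and 150 CPM in the controls and at 97.0, 97.7 and 90.9 CPM in the knockouts. All 3 knockouts lay below both controls (log2 fold change -0.52 ± 0.17, edgeR adjusted p = 0.199). TRIAP1 was at 227 and 228 CPM against 175, 179 and 155 CPM, likewise without overlap (-0.43 ± 0.11, edgeR adjusted p = 0.175).

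RPS27L, a ribosomal protein-like gene that modulates MDM2, was at 163 and 189 CPM in the controls and 107, 139 and 99.9 CPM in the knockouts. Each knockout was below each control (log2 fold change -0.61 ± 0.16, edgeR adjusted p = 0.175). It has near-identical copies, so how reads were divided among them is uncertain. PMAIP1 was at 371 and 426 CPM against 329, 349 and 260 CPM, with a gap narrower than the spread within either group (-0.35 ± 0.13, edgeR adjusted p = 0.231). DDB2, which recognises ultraviolet lesions in chromatin, was at 92.1 and 116 CPM against 66.5, 74.7 and 71.5 CPM (-0.55 ± 0.19, edgeR adjusted p = 0.208).

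With the length trend removed, only RPS27L and DDB2 stayed below both controls in every knockout (2 of 31, all genes 15.2%). For RPS27L the adjustment used the doubtful length of 6434 bases, so its place after adjustment cannot be relied on. The log2 fold change of TRIAP1 was then -0.06, of BAX -0.20 and of PMAIP1 -0.16.

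Among the members higher in every knockout, TNFRSF10B, the TRAIL receptor DR5, was at 90.8 and 94.7 CPM in the controls and 125, 145 and 117 CPM in the knockouts. The gap between the groups exceeded the range within the controls (log2 fold change 0.48 ± 0.17, edgeR adjusted p = 0.218). XPC, the damage sensor of nucleotide excision repair, was at 29.3 and 36.7 CPM against 43.9, 52.1 and 60.4 CPM (0.66 ± 0.27, edgeR adjusted p = 0.266). Its exons overlap LSM3 on the opposite strand, which had 322 to 504 counts. SPATA18 had 0 and 3 counts in the controls and 30, 25 and 5 in the knockouts. The controls were at or under the floor of 3 counts, so no fold is given.

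TP53INP1, a promoter of autophagy and apoptosis, was at 8.25 and 17.7 CPM in the controls and 16.4, 33.9 and 32.0 CPM in the knockouts. The groups overlapped, with knockout 1 below control 2 (log2 fold change 1.08 ± 0.49, edgeR adjusted p = 0.309). EDA2R, a receptor of the TNF family, had 0 and 78 counts in the controls and 45, 56 and 83 in the knockouts, so that the controls themselves were the furthest apart.

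The remaining members did not separate. BBC3 (PUMA), a BH3-only protein, had 25 and 17 counts against 8, 22 and 30. PHLDA3, an inhibitor of AKT, was at 93.3 ± 42.4 CPM (SD, n = 2) in the controls and 83.9 ± 37.5 CPM (SD, n = 3) in the knockouts. TIGAR, which lowers glycolytic flux, was at 93.8 ± 21.8 and 103 ± 6.58 CPM in the same groups. FDXR, a mitochondrial reductase, was at 69.7 ± 3.95 and 61.1 ± 13.2 CPM, and TP53I3, a quinone oxidoreductase, at 106 ± 11.7 and 95.3 ± 6.63 CPM. In each of these the difference of the means was no larger than the larger SD. TIGAR shares 42.6% of its exon bases with another gene on its own strand.

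**Figure D4:**
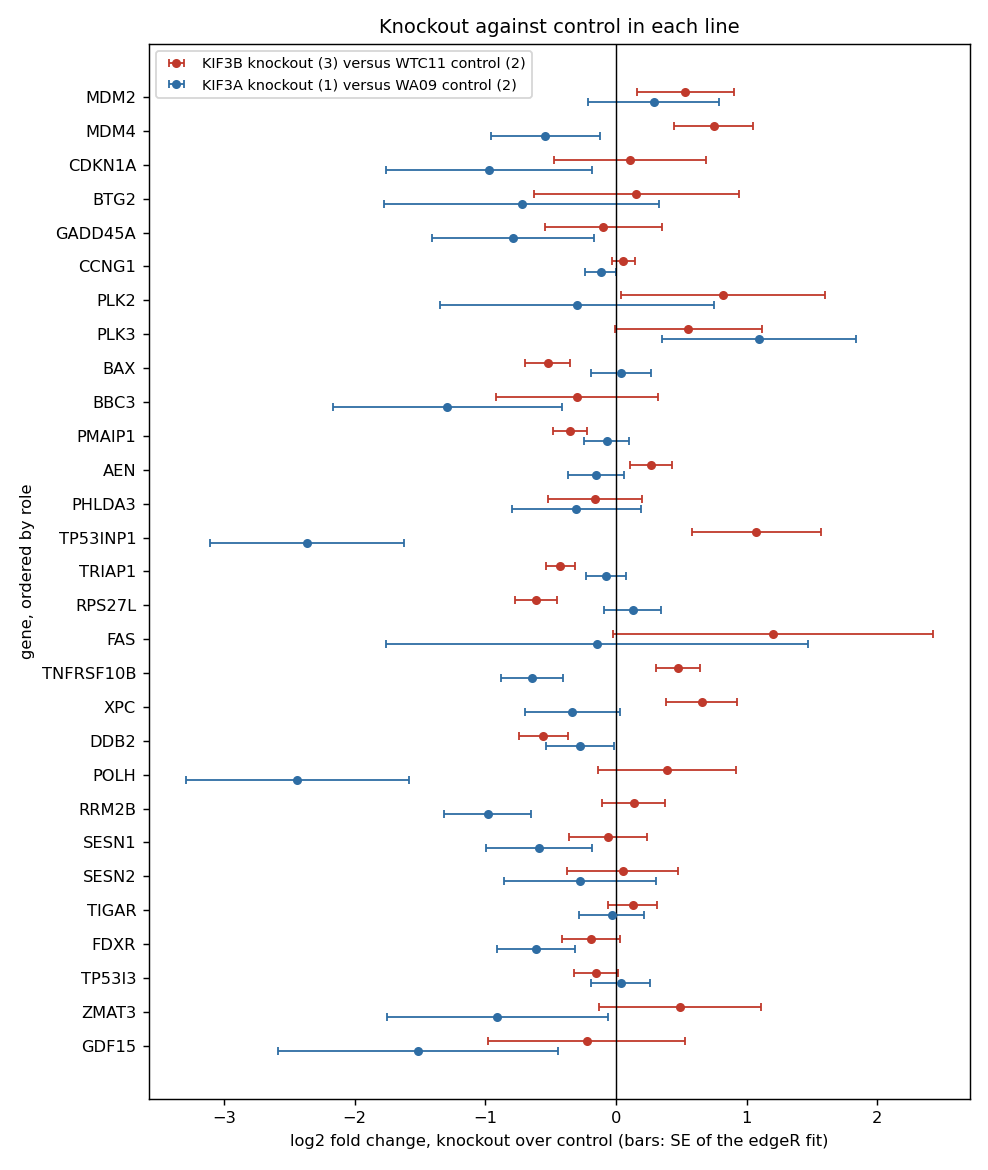
Log2 fold change of knockout over control for 29 p53 targets in each line, ordered by role, with bars for the SE of the edgeR fit; SPATA18 and EDA2R are left out because a WTC11 control had 0 counts. KIF3B values lie on both sides of 0, and most KIF3A values lie below it, with wide bars from a single knockout library.

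The KIF3A knockout was compared with the 2 WA09 controls. Fitted means were lower for 26 and higher for 5 of the 31 members, with a median log2 fold change of -0.33 (all genes tested, -0.02). The knockout library was below both controls for 21 members, against 33% of all genes tested, and above both for 4, MDM2, PLK3, RPS27L and TP53I3, against 33.8%. By role the 21 held 5 of 6 cell cycle arrest genes, 5 of 8 mitochondrial apoptosis genes and 4 of 4 repair and nucleotide supply genes. They also held 2 of 3 death receptors, 4 of 8 stress and secreted factor genes, and MDM4. Of the further direct targets 23 of 71 were below both controls, of the regulators 7 of 31, of the DREAM-repressed genes 14 of 34 and of the integrated stress response genes 4 of 11. Above both controls were 14 of 71, 16 of 31, 12 of 34 and 3 of 11 in the same order.

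No gene passed the threshold by edgeR (0%). DESeq2 called 0.00703% of all genes and 0 members. Unadjusted edgeR p-values were under 0.05 for 4 members, all lower, and for 3.71% of all genes. limma gave 3 members and DESeq2 4. Without WA09 control 1 the edgeR count was 2. With 1 knockout library, its spread was taken from the other groups, and these differences have no replicate check.

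POLH had 41 and 61 counts in the WA09 controls and 8 in the KIF3A knockout, 18.3% of the control mean on the CPM scale. This was a log2 fold change of -2.44 ± 0.85, with an edgeR adjusted p of 1. TP53INP1 had 56 and 89 counts in the controls and 12 in the knockout, 19.3% of the control mean (-2.36 ± 0.74). For both genes the knockout was also the lowest of all 8 libraries in CPM.

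RRM2B was at 404 and 255 CPM in the controls and 167 CPM in the knockout, where the controls differed by more than the knockout differed from control 2 (log2 fold change -0.98 ± 0.33). TNFRSF10B was at 106 and 93.3 CPM in the controls and 64.0 CPM in the knockout, the lowest of the 8 libraries (-0.64 ± 0.24). CDKN1A was at 102 and 131 CPM in the controls and 59.5 CPM in the knockout, 50.9% of the control mean (-0.97 ± 0.79). GDF15 had 75 and 105 counts against 27 (-1.52 ± 1.07). MDM2 went the other way, at 59.6 and 41.4 CPM against 61.7 CPM, with a difference of 0.29 ± 0.50 that is within its error and turned to -0.08 with the number of detected genes as a covariate.

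**Figure D5:**
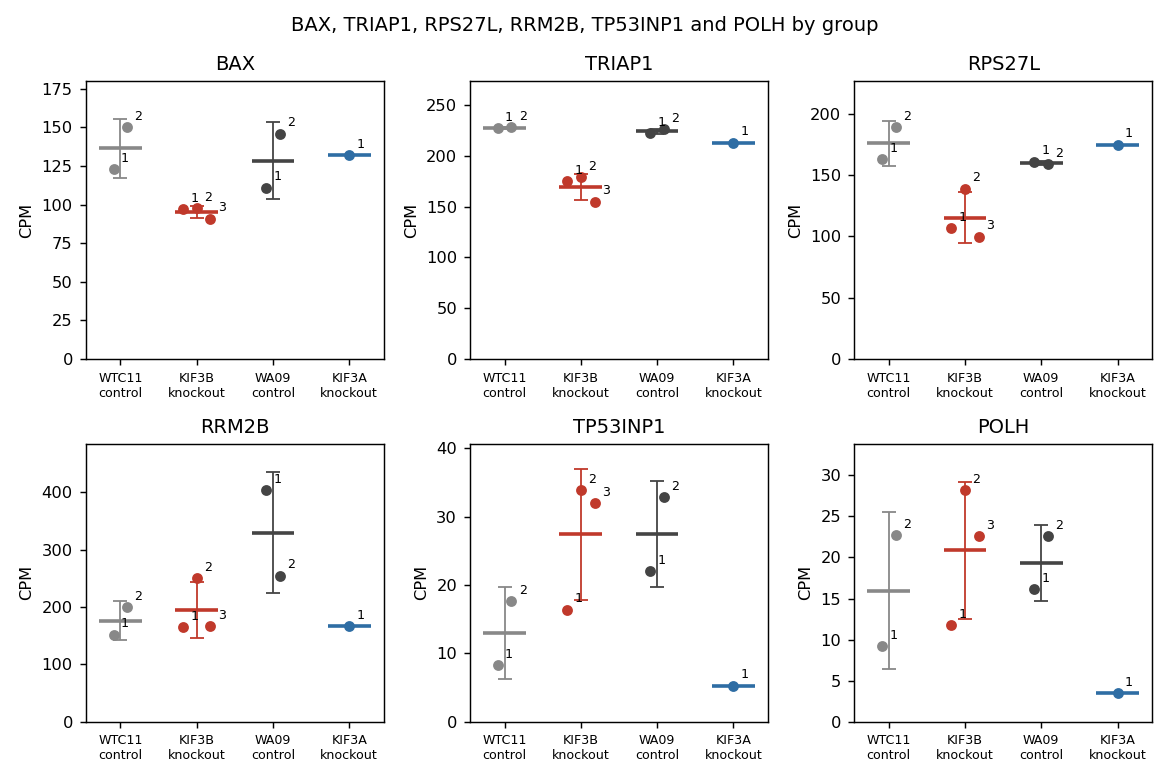
CPM of BAX, TRIAP1, RPS27L, RRM2B, TP53INP1 and POLH in every library by group (points, labelled with the replicate number), with the group mean (line) and SD (bar) where a group has more than 1 library; axes are linear and start at 0. In the upper row the 3 KIF3B knockouts lie below both WTC11 controls, and in the lower row the KIF3A knockout lies below both WA09 controls. The genes shown were taken from the members with these places, so the places follow from that choice. With the length trend removed, BAX and TRIAP1 no longer kept theirs.

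The difference between the knockout effects was tested as KIF3A effect minus KIF3B effect. It was below 0 for 24 and above 0 for 7 members, with a median of -0.69 on the log2 scale (all genes -0.04), which became -0.12 without KIF3B knockout 2 and -0.38 under limma. No gene passed the threshold by edgeR (0%) and DESeq2 called 0.138% of all genes and 0 members. Unadjusted edgeR p-values were under 0.05 for 6 members, 5 below and 1 above 0, and for 9.3% of all genes, with 4 members by limma and 7 by DESeq2. The edgeR count was 3 without WA09 control 1. TP53INP1 had a difference of -3.44 ± 0.89, TNFRSF10B of -1.12 ± 0.29, RRM2B of -1.12 ± 0.41 and POLH of -2.83 ± 1.00 (edgeR adjusted p = 0.515 for each). MDM4 had -1.29 ± 0.52 (edgeR adjusted p = 0.519). RPS27L was the 1 above 0, at 0.74 ± 0.27 (edgeR adjusted p = 0.515).

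With both lines pooled, 4 knockout libraries were set against 4 controls with the line as a term. Like the difference above, this comparison reuses the libraries of the 2 arms. Members were higher in 13 and lower in 18 cases, with a median of -0.08 (all genes 0.01). No gene passed the threshold by edgeR (0%), and DESeq2 called 0.264% of all genes and 0 members. Unadjusted edgeR p-values were under 0.05 for 2 members, both lower (8.59% of all genes), with 2 by limma and 3 by DESeq2. They were TRIAP1 (-0.30 ± 0.11) and DDB2 (-0.45 ± 0.16), each with an edgeR adjusted p of 0.565. CDKN1A was at -0.26 ± 0.48, which turned to 0.12 without the KIF3A knockout, and MDM2 at 0.46 ± 0.29. Without KIF3B knockout 2 the median was -0.39 and 8 members had an unadjusted p under 0.05, and without the KIF3A knockout the median was 0.13 with 9 such members. Leaving out KIF3B knockout 1 gave a median of 0.02, and leaving out WTC11 control 1 or 2 gave -0.26 or -0.03, with 1 such member in each of these fits. The 8.59% of all genes belongs to the fit with all libraries. Shares of all genes with a library left out are not given here, so these counts cannot be set against them.

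The controls of the lines were compared last. These libraries also enter the knockout comparisons, so the values are not independent of those above. Both WTC11 controls were below both WA09 controls for 15 members (all genes 23.6%) and above for 4, MDM2, TRIAP1, RPS27L and TP53I3 (all genes 23.6%). The 15 held 5 of 6 cell cycle arrest genes, 5 of 8 stress and secreted factor genes, 3 of 8 mitochondrial apoptosis genes, and RRM2B and XPC. Fitted means were lower in WTC11 for 23 and higher for 8, with a median of -0.32 (all genes -0.01), which was -0.17 without WTC11 control 1. Of the further direct targets 18 of 71 were lower without overlap, of the regulators 4 of 31 and of the DREAM-repressed genes 13 of 34. Higher without overlap were 6 of 71, 15 of 31 and 13 of 34 in the same order. DESeq2 called 4 regulators, all higher in WTC11. It also called 1 DREAM-repressed gene and 1 integrated stress response gene, both lower.

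edgeR called 0.0281% of all genes and 0 members, and DESeq2 2.36% and 1 member, RRM2B. Unadjusted edgeR p-values were under 0.05 for 5 members, all lower in WTC11, and for 15% of all genes, with 6 members by limma and 6 by DESeq2. The edgeR count was 2 without WTC11 control 1 and 3 without either WA09 control.

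RRM2B, at 152 and 200 CPM in the WTC11 controls and 404 and 255 CPM in the WA09 controls, differed by -0.90 ± 0.26 (log2, WTC11 over WA09, edgeR adjusted p = 0.188). The DESeq2 adjusted p was 0.0216. CCNG1, at 409 and 403 against 538 and 522 CPM, was lower by a margin that exceeded the spread within either line (-0.38 ± 0.10, edgeR adjusted p = 0.155). PMAIP1, at 371 and 426 against 537 and 548 CPM, differed by -0.45 ± 0.14 (edgeR adjusted p = 0.204), and FDXR, at 66.9 and 72.5 against 114 and 105 CPM, by -0.65 ± 0.24 (edgeR adjusted p = 0.26). CDKN1A was at 38 and 67.1 against 102 and 131 CPM, 45% of the WA09 mean, without overlap (-1.15 ± 0.63, edgeR adjusted p = 0.425). MDM2 was at 74.3 and 81.6 against 59.6 and 41.4 CPM, in the other direction (0.63 ± 0.41), which turned to -0.55 with the number of detected genes as a covariate.

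Of the other lists, the genes with the smallest p in the KIF3B comparison were read as values, none of them past the threshold by edgeR. DESeq2 called TNFRSF10D (DESeq2 adjusted p = 0.0208) and KIF20A (DESeq2 adjusted p = 0.0128). TNFRSF10D, a TRAIL decoy receptor, was at 28.4 and 19.9 CPM in the WTC11 controls and 61.9, 57.3 and 57.1 CPM in the KIF3B knockouts (log2 fold change 1.28 ± 0.28, edgeR adjusted p = 0.172). Its 3 knockouts were close together and above both controls. FBXO22, a ubiquitin ligase subunit, was at 193 and 169 against 146, 128 and 125 CPM (-0.44 ± 0.13, edgeR adjusted p = 0.18). SIRT1, a deacetylase of p53, was at 95.8 and 92.0 against 120, 146 and 164 CPM, and RPL23, a ribosomal protein that binds MDM2, at 248 and 213 against 184, 163 and 144 CPM. The first lay higher and the second lower in every knockout. KIF20A, a mitotic kinesin, was at 110 and 114 against 182, 170 and 194 CPM, and CDK1 at 368 and 320 against 287, 247 and 249 CPM, so these DREAM-repressed genes lay on opposite sides of the controls.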

How the data were processed

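The authors deposited raw integer counts of reads for each gene in 8 libraries. The submitters' processing notes name STAR and hg38. The choice of gene counter, annotation, strand setting and duplicate treatment was not given in the sources used here. Entries without a gene name (20993) held 0.446% to 0.673% of a library's counts and entered the totals. Gene models came from GENCODE 29 (GRCh38).

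The counts were fitted with edgeR 4.0.16 (quasi-likelihood F test, robust, TMM, filterByExpr) in R 4.3.3. One fit with a mean per group over all 8 libraries (14216 genes) gave 4 comparisons. A fit with the line as a term (13238 genes) gave the pooled one. p-values were adjusted by Benjamini-Hochberg over all genes, with a threshold of 0.05. The edgeR test gives no SE, so each SE was derived as the absolute log2 fold change over the square root of the F statistic. DESeq2 1.42.0 and limma 3.58.1 (voom) were alternatives, with other scaling, no count filter, length trends, detected genes, a guide block and left-out libraries. Within groups, replicate libraries differed by more than counting noise (a chi-square over its degrees of freedom of 5.90 to 8.37). The floors cover counting error only, while the SE and SD values also hold the spread between libraries.

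The members and lists were chosen with earlier results of these data known. Values per library were to be given for CDKN1A, MDM2 and the 8 further members with the smallest p in any comparison, and for the 2 genes of each other list with the smallest p in the KIF3B comparison. Library values of further members were added after their values were seen.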

Additional observations from a re-analysis of the deposited data

How the results depend on the processing

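The count of members past the threshold was 0 in all 5 comparisons with each library left out in turn (range 0 to 0), other than the lone KIF3A knockout, without which the KIF3A comparison and the difference between the effects have no value, and under DESeq2 size factors, limma, the length trends and detected genes as a covariate. Without a filter on low counts edgeR called 1 member in the KIF3B comparison (RPS27L), 1 in the KIF3A comparison (RRM2B), 2 for the difference between the effects (RRM2B and TP53INP1) and 3 between the control lines (RRM2B, CDKN1A and PMAIP1). The share of all genes called without the filter is not given here, so these calls have no background beside them. DESeq2 called 1 between the control lines (RRM2B). The cause was not tested. In the KIF3B comparison, CDKN1A ran from -0.88 to 0.58 with 1 library left out, FAS from -1.60 to 2.46 and PLK2 from -0.71 to 1.32. CDKN1A turned to a log2 fold change of -0.25 under limma, -0.24 without WTC11 control 1 and -0.88 without KIF3B knockout 2. FAS turned to -0.24 and -1.60, and PLK2 to -0.027 and -0.71, under limma and without knockout 2. With detected genes as a covariate MDM2 turned to -0.084 in the KIF3A comparison and -0.55 between the control lines. Without the KIF3A knockout, CDKN1A turned to 0.12 in the pooled comparison, where its range with 1 library left out was -0.92 to 0.12. Of 37 gene and comparison pairs, 6 turned at least once.

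For counts by unadjusted p, the share of all genes is given only for the main edgeR fits. Members with an unadjusted p under 0.05 in the KIF3B comparison numbered 3 and 2 with the length trend of the longest or principal transcript removed, against 9, and 5 with detected genes as a covariate. That covariate moved the median of the members to -0.69 in the KIF3A comparison, -1.40 for the difference and -0.65 between the control lines. With the guide number as a replicate block no member was called in the KIF3B or pooled comparison, and 9 and 2 had an unadjusted p under 0.05. The block moved the median log2 fold change to 0.05 and -0.07. Deviations of knockouts and the control with the same guide correlated at -0.10 to 0.09. No pairing by guide number was seen, but with so few WTC11 libraries this check cannot exclude it. Groups of 1 to 3 libraries with 4 residual degrees of freedom limit what can be called.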
